A study of Bos indicus with 5 samples.

Results

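The CADM genes (cell adhesion molecules) formed a family of 4 entries among the 24616 genes of the ampulla table, CADM1, CADM2, CADM3 and CADM4, and all 4 were matched by symbol. The family was selected on a measured value, because CADM3 had been found higher in the large follicle group of these same libraries, and its paralogs were then added by name and not by their values. The group difference of CADM3 is therefore given as a description without a test. The tests concern the 3 paralogs and the genes of their known partners.

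CADM proteins are single-pass membrane proteins of the immunoglobulin superfamily, related to the nectins. They bind each other across cell contacts, either as like pairs or with other family members, and inside the cell their tails hold protein 4.1 and PDZ scaffold proteins. CADM1 is known from epithelia, mast cells and synapses and also binds CRTAM on lymphocytes, CADM2 and CADM3 are best known from neural tissue, and CADM4 from epithelia and from the glia that wrap axons.

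RNA sequencing had been done on the ampulla, the wide part of the oviduct next to the ovary, from 5 healthy multiparous Nelore (Bos indicus) cows, 2 of them with a large preovulatory follicle and a large corpus luteum (LF/LCL) and 3 with a small follicle and corpus luteum (SF/SCL). All cows were presynchronized with a prostaglandin F2α analog (0.5 mg of sodium cloprostenol) and a GnRH agonist (1 µg of buserelin) 7 days apart. Every cow then received an intravaginal progesterone device (1 g) with 2 mg of estradiol benzoate on day -10, prostaglandin when the device came out and once more 6 h later, and the GnRH agonist to induce ovulation on day 0. LF/LCL cows had an additional prostaglandin dose on day -10 and lost the device 42 h before GnRH, against 30 h in SF/SCL. The ampulla of the ovulating side, the whole wall, was taken on day 4. The study ranked the cows by follicle, corpus luteum and steroid measurements and sequenced the extremes of each group, so that these libraries stand for the ends of the groups. A further LF/LCL ampulla library was left out by the study because its quality was poor and it gave few reads. Each library is a different animal. As bulk tissue was sequenced, fewer cells of a type and less RNA per cell cannot be told apart.

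Between 13418278 and 19592174 reads per library were assigned to genes. The tissue label was checked with oviduct markers. OVGP1, the oviduct glycoprotein, ran from 117179 to 147247 normalized reads (reads divided by a size factor for the library), PAX8, a secretory cell factor, from 716 to 1279, and FOXJ1, the regulator of motile cilia, from 8481 to 12698. Normalized reads are not divided by transcript length, so levels are compared between libraries for 1 gene and not between genes.

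CADM3 was the member with the clearest separation of the groups. It (ENSBTAG00000003217) stood at 185 normalized reads in LF/LCL replicate 1 and at 215 in replicate 2, whereas SF/SCL replicates 1, 2 and 3 had 28.1, 38.1 and 38.6. The groups did not overlap, as the lower LF/LCL library was 4.80 times the highest SF/SCL library. These values rest on 158 and 222 reads in LF/LCL and on 27, 49 and 36 reads in SF/SCL. The 95% exact Poisson intervals, which cover counting error only, reached from 157.5 to 245 in LF/LCL and from 18.5 to 53.5 in SF/SCL. The group means were 200.1 ± 20.9 (SD, n = 2) and 34.9 ± 5.95 (SD, n = 3). The log2 fold change of LF/LCL over SF/SCL was 2.49 ± 0.30 (SE), on the scale of log2(value + 1). By this value CADM3 stood at position 72 from the top of the 15815 genes tested, and at position 27 of the 13139 genes with a mean of at least 50 normalized reads. The difference chose the family, so it supports nothing further. In the study's own RNA sequencing test of these libraries CADM3 was significantly higher in LF/LCL. In the study's quantitative PCR, ampulla CADM3 lay on the same side in these cows and in a larger set, without reaching significance. Over ampulla and isthmus, the other oviduct region sampled, the study reported no treatment effect on CADM3.

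**Figure D1:**
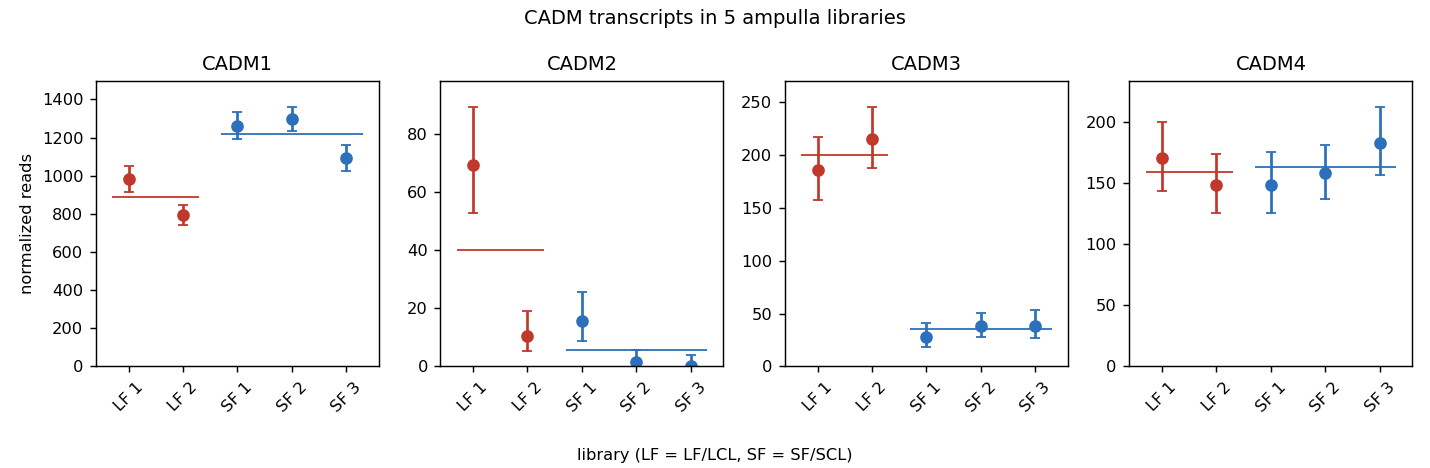
Normalized reads of CADM1, CADM2, CADM3 and CADM4 in each of the 5 ampulla libraries, with a panel and a linear y axis starting at 0 for each gene. Points are libraries, bars are 95% exact Poisson intervals (counting error only) and horizontal lines are group means, with LF/LCL in red and SF/SCL in blue. CADM3 separates the groups (185 and 215 against 28.1 to 38.6), CADM1 is lower in both LF/LCL libraries, CADM2 is spread widely and the CADM4 groups overlap.

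CADM1 lay on the other side of its SF/SCL libraries from CADM3. It (ENSBTAG00000000977) had 982 and 793 normalized reads in LF/LCL against 1262, 1296 and 1091 in SF/SCL. Both LF/LCL libraries were under all SF/SCL libraries, though only by a factor of 1.11 between the nearest pair, LF/LCL replicate 1 and SF/SCL replicate 3, whose Poisson intervals overlapped (916 to 1050 and 1025 to 1161). The LF/LCL libraries differed from each other by more than counting error, since the interval of replicate 2 ended at 849. The means were 887 ± 134 (SD, n = 2) and 1217 ± 110 (SD, n = 3). The log2 fold change was -0.46 ± 0.14 (SE), with a 95% interval from -0.80 to -0.12 and a limma adjusted p of 0.343, so that the difference did not pass the threshold of 0.05. The unadjusted p was 0.017. Without LF/LCL replicate 2 the log2 fold change was -0.31 and without LF/LCL replicate 1 it was -0.61.

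CADM4 was the steadiest member. It (ENSBTAG00000015984) had 170.1 and 148 normalized reads in LF/LCL against 149, 158 and 182 in SF/SCL. The groups overlapped, and the highest library was 1.23 times the lowest. The Poisson intervals of all 5 libraries had a stretch in common, from 156 to 174, which is not a test that the libraries were equal. The means were 159 ± 15.5 (SD, n = 2) and 163 ± 17.5 (SD, n = 3), with a log2 fold change of -0.033 ± 0.207 (SE) and a limma adjusted p of 0.972. The 95% interval of the log2 fold change, from -0.54 to 0.47, leaves room for changes of that size in either direction.

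CADM2 was carried by few reads and varied widely within both groups. It (ENSBTAG00000009219) had 69.2 and 10.6 normalized reads in LF/LCL against 15.6, 1.55 and 0 in SF/SCL. These values are 59 and 11 reads in LF/LCL against 15, 2 and 0 reads in SF/SCL. The groups overlapped, because SF/SCL replicate 1 exceeded LF/LCL replicate 2. The LF/LCL libraries differed 6.50-fold, and their Poisson intervals (52.7 to 89.3 and 5.32 to 19.1) were apart. In SF/SCL replicate 3 no read was counted, which allows up to 3.22 normalized reads by a floor of 3 reads, while the exact Poisson interval drawn in the plot of the members ends at 3.96. The log2 fold change of 3.04 ± 1.40 (SE) came with a 95% interval from -0.39 to 6.46 and a limma adjusted p of 0.477. It rested on single libraries, as it was 1.74 without LF/LCL replicate 1 and 4.33 without LF/LCL replicate 2.

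Of the 3 paralogs, 0 had a limma adjusted p under 0.05, and among all 15815 genes the share was also 0%. CADM1 alone had an unadjusted p under 0.05, where 11.5% of all genes had one (1819 genes). Groups without overlap and lower in LF/LCL, as in CADM1, were found in 15.1% of all genes. Groups without overlap and higher in LF/LCL, as in CADM3, were found in 15% of all genes. CADM1 is thus 1 of many genes with a pattern of this kind. The edgeR quasi-likelihood test on reads also called 0 genes (1828 at an unadjusted p under 0.05), while DESeq2 called 457 (2.89%), with CADM1, CADM2 and CADM4 not among them (adjusted p 0.185, 0.466 and 0.99). The study, which tested these libraries with DESeq, reported differentially expressed genes in both directions.

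The members were also set against each other within each library, where the size factor drops out. There were 0.189 and 0.271 CADM3 reads per CADM1 read in LF/LCL against 0.0222, 0.0294 and 0.0354 in SF/SCL. Per CADM4 read there were 1.09 and 1.45 CADM3 reads in LF/LCL against 0.189, 0.241 and 0.212 in SF/SCL. Neither ratio overlapped between the groups, but both contain the CADM3 values that chose the family and are given as a description. CADM1 reads per CADM4 read were 5.77 and 5.35 in LF/LCL against 8.49, 8.22 and 5.98 in SF/SCL, so that SF/SCL replicate 3 came close to the LF/LCL libraries.

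Of all reads assigned to the 4 genes, CADM3 took 13.2% (95% exact binomial interval 11.3 to 15.2) in LF/LCL replicate 1 and 18.4% (16.3 to 20.7) in LF/LCL replicate 2. In SF/SCL replicates 1, 2 and 3 it took 1.93% (1.28 to 2.80), 2.55% (1.89 to 3.36) and 2.94% (2.07 to 4.05). CADM1 took 69.8% and 68.0% in LF/LCL against 86.8%, 86.8% and 83.2% in SF/SCL. The sum of the 4 genes overlapped between the groups, with 1406 and 1166 normalized reads in LF/LCL against 1455, 1494 and 1313 in SF/SCL. CADM3 gave 185 and 215 of this sum in LF/LCL against 28.1, 38.1 and 38.6 in SF/SCL, and the overlap depends on it. A higher CADM3 also lowers the CADM1 share. The shares and the sum thus contain the values that chose the family and are given as a description.

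Partners of the CADM proteins were described from 4 lists with 40 genes, of which 38 were in the table and 36 passed the filter (a mean over 5 normalized reads). With limma, 0 of the 36 had an adjusted p under 0.05. An unadjusted p under 0.05 was found for 12, 5 higher and 7 lower in LF/LCL, which is 33.3% beside 11.5% of all genes. The median log2 fold change was 0.079, beside 0.0054 over all genes tested. The groups did not overlap in 10 genes that were higher and 8 that were lower in LF/LCL, beside 15% and 15.1% of all genes. DESeq2 called 4 of them, MPP2, TIAM1, KDR and APH1B, all lower in LF/LCL, where it called 2.89% of all genes and 1.5% as lower. TIAM1 and KDR are also among the genes the study lists for the SF/SCL ampulla.

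**Figure D2:**
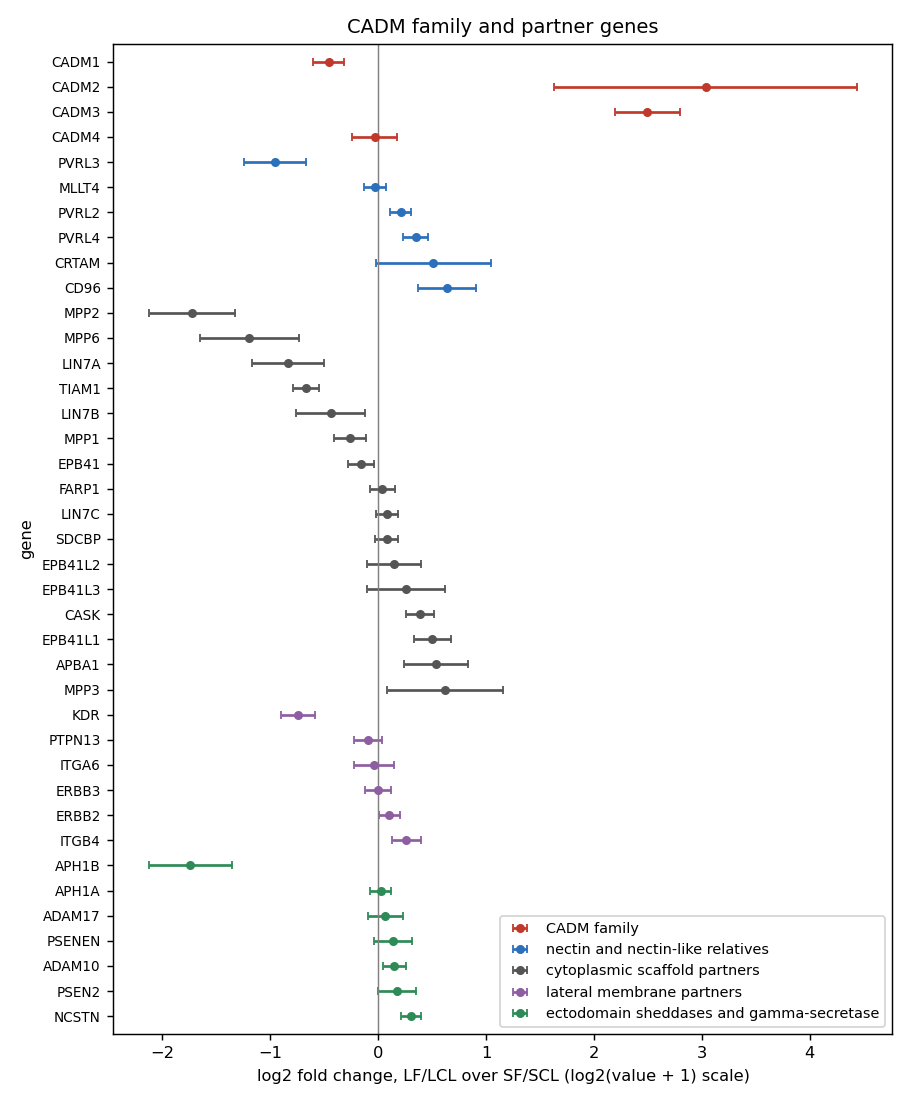
Log2 fold change of LF/LCL over SF/SCL on the log2(value + 1) scale for the 4 CADM genes and the tested partner genes except 1, with gene symbols as the table gives them (PVRL2 to PVRL4 are nectins, MLLT4 is afadin). Points are limma estimates, bars are ± 1 SE, and colors mark the 5 gene groups. CADM3 (2.49) and CADM2 (3.04, with a wide bar) lie to the right of all partner genes, which run from -1.74 (APH1B) to 0.64 (CD96).

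The first list held nectins and other nectin-like relatives. Of its 10 genes 6 were tested, 4 with a log2 fold change above 0 and 2 below, and the list median was 0.28. PVRL3 (nectin 3, a junction protein of epithelia) had 114 and 201 normalized reads in LF/LCL against 251, 327 and 314 in SF/SCL. The LF/LCL libraries of PVRL3 were both lower, with a log2 fold change of -0.96 ± 0.29 (SE) and a limma adjusted p of 0.33. PVRL4 (nectin 4) was on the other side with 1211 and 1214 against 933, 1050 and 885, a log2 fold change of 0.35 ± 0.11 (SE) and an adjusted p of 0.362. CD96, a lymphocyte receptor of the nectin system, had 150.1 and 221 in LF/LCL against 97.7, 133 and 122 in SF/SCL, which gave 0.64 ± 0.27 (SE) on the log2 scale and a limma adjusted p of 0.453. CRTAM, the lymphocyte ligand of CADM1, was low and overlapped between the groups, with 21.1 and 36.8 in LF/LCL against 14.6, 30.3 and 16.1 in SF/SCL. It was named after its values were seen. CD226 and TIGIT, other lymphocyte receptors, had means of 4.13 and 2.62 and were not tested.

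The second list held scaffold proteins that bind CADM tails or nearby membrane proteins. All 16 were tested, and 9 had a log2 fold change above 0 and 7 below, with a median of 0.058. LIN7A, a PDZ scaffold, had 44.6 and 58.1 normalized reads in LF/LCL against 116, 92.5 and 71.9 in SF/SCL, which gave a log2 fold change of -0.84 ± 0.33 (SE). TIAM1, an activator of the GTPase RAC, had 577 and 484 in LF/LCL against 858, 842 and 825 in SF/SCL. Its groups were far apart relative to their spread, with a log2 fold change of -0.67 ± 0.12 (SE) and a limma adjusted p of 0.212. APBA1, an adaptor of the same scaffold complex, had 125 and 111 against 97.7, 87.8 and 62.2.

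Other scaffold genes were looked at after their values were seen. EPB41L1, a protein 4.1 known to bind CADM3, had 700.1 and 509 normalized reads in LF/LCL against 402, 441 and 421 in SF/SCL, with a log2 fold change of 0.50 ± 0.17 (SE) and a limma adjusted p of 0.365. CASK, a membrane-associated kinase scaffold, had 943 and 1118 against 818, 825 and 716, a log2 fold change of 0.39 ± 0.13 (SE). The LF/LCL libraries were the higher ones in both genes. MPP2, a palmitoylated membrane scaffold, had few reads and went the other way, with 16.4 and 11.6 against 49.9, 41.2 and 53.7. EPB41L3, the protein 4.1 first described as a partner of CADM1, overlapped between the groups, with 792 and 375 against 435, 365 and 599.

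The third list held receptors and a phosphatase that lie beside CADM1 or CADM4 in the membrane. Of its 6 genes, 2 had a log2 fold change above 0 and 4 below. KDR, the VEGF receptor of blood vessels, had 2080 and 1797 normalized reads in LF/LCL against 3546, 2699 and 3560 in SF/SCL. Its groups did not overlap, and the log2 fold change was -0.75 ± 0.16 (SE) with a limma adjusted p of 0.248. Of the 7 tested endothelial markers 5 had a log2 fold change above 0, beside 50.8% of all genes, and all 7 overlapped. The part of blood vessel cells in the KDR result was not tested. ITGB4, an integrin of the epithelial basement membrane, came to 0.26 ± 0.13 (SE) on the log2 scale. ERBB2, a growth factor receptor, came to 0.10 ± 0.097.

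The fourth list held the proteases that shed CADM1 from the cell surface and the gamma-secretase subunits that cut the remaining stub. Of its 8 genes 7 had a log2 fold change above 0, and the list median was 0.14. The sum over the list was 9192 and 9503 normalized reads in LF/LCL against 8185, 8455 and 8563 in SF/SCL, without overlap. NCSTN, the subunit that docks substrates, had 1590 and 1711 in LF/LCL against 1317, 1354 and 1343 in SF/SCL, with a log2 fold change of 0.30 ± 0.095 (SE) and a limma adjusted p of 0.347. PSEN2, a catalytic subunit, had a log2 fold change of 0.17 ± 0.18 and overlapped. ADAM10 and ADAM17, the sheddases, both overlapped between the groups, with 0.15 ± 0.11 and 0.067 ± 0.165. APH1B went against the list, with 16.4 and 16.5 in LF/LCL against 56.1, 45.9 and 73.0 in SF/SCL, and was named after its values were seen.

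Marker lists of the cell types of the oviduct wall were summed in each library and set beside the CADM genes. Smooth muscle markers were higher in LF/LCL in all 11 tested genes, 9 of them without overlap (15% of all genes were higher without overlap), and none was at 0. Their sum was 126702 and 65504 normalized reads in LF/LCL against 40882, 43586 and 17523 in SF/SCL. Proliferation markers had a log2 fold change above 0 in all 8 tested genes, 6 without overlap beside the same 15%, with a sum of 752 and 431 in LF/LCL against 269, 315 and 196 in SF/SCL. These sums were on the same side as CADM3 but did not order the libraries alike. LF/LCL replicate 1 had more smooth muscle signal and less CADM3 than LF/LCL replicate 2, although the Poisson intervals of CADM3 overlapped. SF/SCL replicate 3 had the least smooth muscle signal while its CADM3 was as in SF/SCL replicate 2. Per 1000 normalized reads of the smooth muscle sum there were 1.46 and 3.28 of CADM3 in LF/LCL against 0.687, 0.874 and 2.20 in SF/SCL, so that this ratio overlapped. Per 1000 of the proliferation sum there were 246 and 499 against 104, 121 and 197, without overlap. The part of these markers in the CADM3 result was not tested.

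Ciliated cell markers were on the side of CADM1. All 10 tested genes had a log2 fold change below 0, 9 without overlap (15.1% of all genes were lower without overlap), and none was at 0. Their sum was 31241 and 34799 normalized reads in LF/LCL against 44580, 48209 and 47671 in SF/SCL. Per 1000 normalized reads of this sum there were 31.4 and 22.8 of CADM1 in LF/LCL against 28.3, 26.9 and 22.9 in SF/SCL, and the groups overlapped. The overlap was not particular to the ciliated list. CADM1 per 1000 of the stromal fibroblast, endothelial, mesothelial and immune cell sums overlapped as well, and for the remaining lists it was lower in LF/LCL without overlap. The part of the ciliated markers in the CADM1 result was not tested. For CADM3 the ratio to the ciliated sum was 5.93 and 6.17 against 0.630, 0.790 and 0.810, without overlap.

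**Figure D3:**
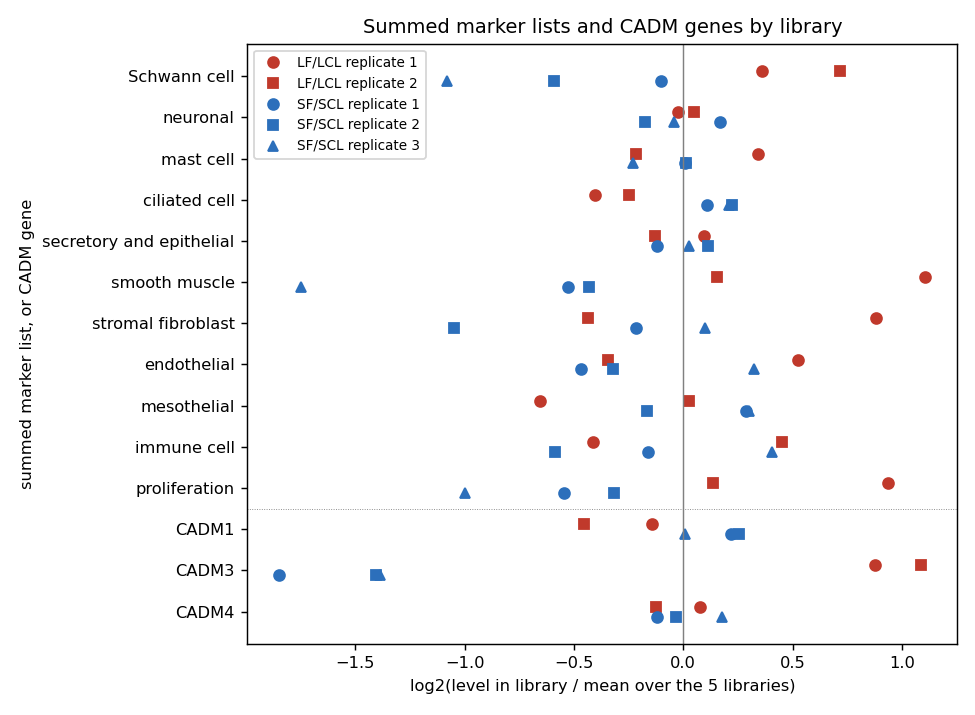
Summed normalized reads of 11 marker lists, and normalized reads of CADM1, CADM3 and CADM4, as log2 of the level in a library over the mean of the 5 libraries. Each point is a library, LF/LCL in red and SF/SCL in blue, with the shape giving the replicate. The smooth muscle and proliferation sums lie to the right in LF/LCL like CADM3, the ciliated sum lies to the left like CADM1, and the Schwann cell sum is 97.6% S100B.

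Markers of neural and mast cells, where CADM genes are well known, gave a mixed picture. Of the Schwann cell markers, SOX10, the regulator of the lineage, had a mean of 14.9 normalized reads. S100B made up 97.6% of the list's sum, which ran from 28278 to 36244 in LF/LCL and from 10424 to 20557 in SF/SCL, with 4 of the 8 tested genes above 0. CDH19 and FOXD3 were also higher in LF/LCL without overlap. CDH19 had 15.2 and 10.6 against 0, 8.55 and 3.22, and FOXD3 had 39.9 and 38.7 against 23.9, 30.3 and 25.8. Both were low, with means of 7.53 and 31.7, so counting error is large for them. Their log2 fold changes were 2.00 ± 1.08 (SE) and 0.55 ± 0.37, with limma adjusted p of 0.539 and 0.618. In this list 3 genes were higher and 1 lower without overlap, beside 15% and 15.1% of all genes. GFRA3, a receptor chain for a neurotrophic factor, was the 1 gene lower without overlap, with 3.52 and 19.4 in LF/LCL against 142, 305 and 237 in SF/SCL. Without S100B the sum of the Schwann cell list was lower in LF/LCL without overlap, at 383 and 317 against 547, 694 and 654. MBP, its second most abundant gene, and PRX overlapped, with log2 fold changes of -0.74 ± 0.33 (SE) and -0.26 ± 0.23. Of the 15 neuronal markers in the table NEFL, GAP43 and CHAT were at 0 in all libraries. The sum of the list overlapped, with 866 and 909 in LF/LCL against 989, 779 and 855, but TUBB3 made up 67.0% of it. Of its 9 tested genes 6 had a log2 fold change above 0, with a list median of 1.38, and 4 were higher in LF/LCL without overlap, beside 15% of all genes. PRPH (peripherin) had 121 and 65.8 in LF/LCL against 39.5, 44.3 and 21.5, DBH (dopamine beta-hydroxylase of sympathetic nerves) 25.8 and 47.4 against 5.20, 0 and 7.51, and NEFH and SYT1 lay likewise. DBH was low, with a mean of 17.2 and a limma adjusted p of 0.355. TH, also on the list, overlapped, with 5.86 and 0.968 in LF/LCL against 0, 1.55 and 10.7 in SF/SCL, and was too low to be tested. The genes given from these lists were named after their values were seen. SNAP25, of the synaptic release machinery, was the 1 neuronal marker lower in LF/LCL without overlap (15.1% of all genes were), with 42.2 and 31.0 against 108, 173 and 166. Mast cell markers gave 5390 and 3657 in LF/LCL against 3625 to 4285 in SF/SCL, of which KIT made up 91.1%, while MS4A2, a receptor chain of mast cells, had a mean of 0.443. The part of the neuronal, Schwann and mast cell markers in the CADM2 and CADM3 results was not tested.

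The other lists overlapped between the groups in their sums. The secretory and epithelial sum ran from 154681 to 180696 in LF/LCL and from 155504 to 182853 in SF/SCL (5 of 8 genes above 0), and the stromal fibroblast sum from 32652 to 81386 and from 21342 to 47255 (7 of 8). The endothelial sum ran from 3203 to 5858 and from 2944 to 5094 (5 of 7), the mesothelial sum from 11213 to 18002 and from 15766 to 21792 (2 of 6), and the immune cell sum from 13122 to 23826 and from 11605 to 23093 (8 of 10). OVGP1 made up 78.7% of the secretory and epithelial sum. Without it the sum was 38583 and 37501 in LF/LCL against 33317, 35607 and 35116 in SF/SCL, without overlap. In that list 4 of the 8 genes were higher and 1 lower without overlap, and in the immune cell list 5 of 10 and 1. The shares of all genes were 15% and 15.1%. CD74 made up 85.5% of the immune cell sum, which overlapped without it too. CADM3 per 1000 of each of these full list sums did not overlap between the groups, and like the other ratios of CADM3 these contain the values that chose the family.

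The genes with the profile most like each member were ranked by the root mean square distance between log2(value + 1) profiles, centred on the mean of the gene over the 5 libraries. The comparison covered genes with a single entry and a mean of at least 50, 11696 of them for CADM2 and 11695 for each other member, which is itself among them and was left out, and a smaller distance is a closer profile. For CADM3 the closest were SEC14L3, a lipid-binding protein (distance 0.302), FIGF, the vascular growth factor also called VEGFD (0.399), UTS2B, a urotensin peptide (0.424), S100A12, a calcium-binding protein of myeloid cells (0.475), and NDRG4 (0.48). A flat gene would be at 1.23 from CADM3. SEC14L3 had 4296 and 6483 normalized reads in LF/LCL against 1038, 1353 and 1716 in SF/SCL, and it shared with CADM3 the order of all 5 libraries. The order of CADM3 within each group is not secure, since its Poisson intervals overlapped there. FIGF had 352 and 264 in LF/LCL against 82.1, 80.8 and 65.5 in SF/SCL.

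Among the closest genes to CADM1 were LDHB, a lactate dehydrogenase subunit (0.0444), and DYNC2LI1, a subunit of the dynein that works inside cilia (0.0454), where a flat gene would be at 0.259. DYNC2LI1 had 634 and 492 normalized reads in LF/LCL against 789, 816 and 738 in SF/SCL, with LF/LCL replicate 2 the lowest and SF/SCL replicate 2 the highest, as in CADM1. The closest to CADM4 were MALT1 (0.0117), MBD6 (0.0151) and EIF2A (0.0194), and a flat gene was at 0.115. For CADM2 the nearest genes were not close, with HIST1H1C at 0.639, PTPRZ1, a receptor phosphatase, at 0.878 and ST8SIA5, a sialyltransferase, at 0.95, against 2.14 for a flat gene. HIST1H1C had 240.4 and 101 in LF/LCL against 68.6, 25.6 and 7.51 in SF/SCL. With 5 libraries and many genes some close profiles are always found, and these are descriptions.

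**Figure D4:**
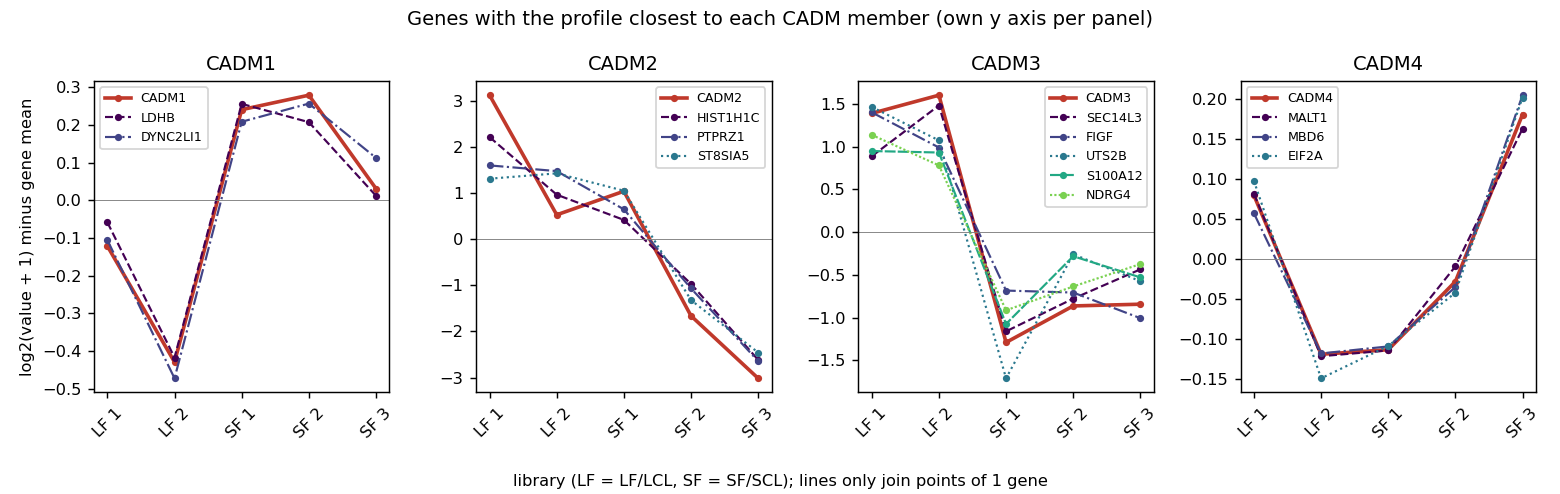
Profiles of each CADM member (thick red line) and of genes closest to it, as log2(value + 1) minus the mean of the gene over the 5 libraries, with a y axis of its own in each panel. The x axis gives the libraries, and lines join the points of 1 gene only to guide the eye. The CADM3 panel steps down from LF/LCL to SF/SCL, the CADM1 panel steps up, the CADM4 panel spans a range under 0.4 and in the CADM2 panel libraries of the same group lie far apart.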

How the data were processed

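The deposited values are a normalized signal, made by the authors as read counts per Ensembl gene divided by 1 size factor per library. Per the labels the tools were CASAVA 1.8.2, TopHat2 2.0.8, Bowtie2 2.1.0, SAMtools 0.1.18, HTSeq 0.5.4p2 and DESeq 1.12.1, and per the study the polyA read pairs were mapped to the UMD cattle assembly and only unique, unambiguous reads were counted. Use of strand was not stated, so overlapping and antisense genes are uncertain. All nonzero values were whole multiples of 1 step per library (100%, the largest distance from a whole number being 0.00933 reads), which gave back the reads.

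Genes with a mean over 5 (15815) were tested with limma 3.58.1 on log2(value + 1) (eBayes with trend and robust), Benjamini-Hochberg adjusted over all genes, two-sided, threshold 0.05, with no covariates. edgeR 4.0.16 and DESeq2 1.42.0 on the reads were alternatives, in R 4.3.3. The code was tested on simulated data.

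The members and lists were chosen with earlier results of these data known. Named genes are the 4 members, up to 3 genes per partner list (mean of at least 50, largest absolute log2 fold change), the 5 or 3 closest profiles, and others where stated. Of the listed genes, PVRL1, PVR, NEFM, HYDIN, ACTG2, MYOCD and PECAM1 were not matched, the tryptase symbol was carried by several entries and left out, and CDH1 was matched as E-CADHERIN after the data were seen. Ratios of members to marker sums were also added then. No coordinates or sequences are given, as the table and the gene table used here hold none of its build. Some genes that the naming rule reached are not reported here.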

Additional observations from a re-analysis of the deposited data

How the results depend on the processing

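Under the 14 alternatives (2 other pseudocounts, no filter, the study's filter, 2 other scalings, plain estimation, edgeR, DESeq2 and leaving out each of the 5 libraries) CADM1 stayed below 0 and over the adjusted threshold, with adjusted p from 0.185 to 0.621. CADM2 stayed above 0 in the 13 it could enter, with adjusted p from 0.401 to 0.834, and was removed by the study's filter, which asks for a mean above the standard deviation. It was 1.96 with a pseudocount of 5 and 3.45 with 0.5. CADM3 ran from 2.35 to 2.60. CADM4 changed sign, with a range of -0.13 to 0.066 when single libraries were dropped (0.051 without SF/SCL replicate 3 and 0.066 without LF/LCL replicate 2), all within its error. A group left with 1 library is assumed to vary like the other. The count of 0 genes called became 457 with DESeq2, and the 0 partner genes became 4. The cause was not tested. The design holds no pairs, because each library is a different animal and each animal is in 1 group only. Members under about 20 reads, as CADM2 in 4 libraries, are limited by counting error.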
